A study of Homo sapiens with 36 samples.

Results

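The genes described here are 26 members of cholesterol metabolism: 5 that act in the first steps to mevalonate and its activation, 3 that make isoprenoid units, 3 that lead from farnesyl diphosphate to lanosterol, 9 that turn lanosterol into cholesterol, and 6 that move, take up or store it. They were chosen by symbol, as enzymes and carriers of this route. All 26 were found in both deposited tables, which hold 13364 genes in 24 libraries and 13066 genes in 12 libraries. RNA was measured by 3' end sequencing (QuantSeq Forward, which reads a tag near the end of each polyadenylated RNA) in the human melanoma cell lines 501mel and IGR37, in 12 groups of 3 libraries. In each line, cells received the SCD inhibitor A939372 at 1 uM (SCDi) or DMSO, an siRNA against SCD (siSCD_1) or its control siRNA (siCTR_1), or another siRNA against SCD (siSCD_2) or its control siRNA (siCTR), each siRNA at 20 nM and each treatment for 48 h. The labels give no genotype, no siRNA sequence and no statement on whether the libraries of a group came from separate cultures, so every p-value below measures only the spread between these libraries, which may be technical. Each line stands for itself alone, and in bulk RNA fewer cells that express a gene and less RNA per cell cannot be told apart.

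SCD, stearoyl-CoA desaturase, places a double bond into saturated fatty acids. Cholesterol is built from acetyl-CoA through mevalonate, isoprenoids, squalene and lanosterol, and most genes of this route carry sites for the transcription factor SREBP2, encoded by SREBF2. SCAP escorts SREBP2 out of the endoplasmic reticulum when membrane sterol is low, INSIG proteins hold it back, and the site-1 and site-2 proteases MBTPS1 and MBTPS2 release its active part. The LXR receptors NR1H2 and NR1H3 answer to oxidised sterols and drive sterol export.

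Levels are the deposited log2 values, on the scale of log2 CPM (reads per gene relative to the reads of the library). Gene reads per library ranged from 4078450 to 6685898 in the first table, which holds the DMSO, SCDi, siCTR and siSCD_2 groups, and from 2402788 to 7483010 in the second, which holds the siCTR_1 and siSCD_1 groups. The tables were scaled separately and were tested separately. As a check of the labels, SCD was at 9.23, 9.49 and 9.36 with siCTR and at 5.05, 4.95 and 5.09 with siSCD_2 in 501mel, and at 10.16, 10.16 and 10.05 against 6.52, 5.32 and 6.09 in IGR37. With siSCD_1 it fell by 2.85 ± 0.07 in 501mel and by 2.67 ± 0.07 in IGR37 (SE, n = 3 against 3, limma adjusted p = 3.62e-13 and 1.03e-12), so all 12 silenced libraries lay below all of their controls. The inhibitor blocks the enzyme and need not lower its RNA: SCD changed by 0.29 ± 0.16 in 501mel (adjusted p = 0.573) and rose by 0.63 ± 0.16 in IGR37 (adjusted p = 0.00215). The melanocyte genes MITF, SOX10, PMEL, MLANA, TYR and DCT were detected in every library, while the epithelial, fibroblast, blood and endothelial markers CDH1, COL1A1, PECAM1 and VWF had at most 31 reads in any library where they are listed, and EPCAM, KRT5, KRT14, COL1A2, COL3A1, PDGFRB, PTPRC and CD3E are in neither gene list. CD68, which is not restricted to blood cells, had 14 to 545 reads. The second IGR37 siSCD_2 library stood apart for some members: it had the lowest SCD level of its group, was the lowest of the 3 for 13 of the 26 members (another of the group was lowest for 12), and lay well below the others for ACAT2, HMGCS1, FDPS and EBP, so the count of members called is also given without it. Values of some members are uncertain because their exons overlap those of a neighbour or because near-identical copies exist: ACAT2 (with TCP1 and SOD2), GGPS1 (TBCE and ARID4B), TM7SF2 (VPS51), TMEM97 (IFT20), MVK (MMAB), NPC1 (RMC1), NPC2 (ISCA2), CYP51A1 (the models AC000120.2 and AC000120.3), and FDPS, CYP51A1, HSD17B7 and TMEM97, with 8, 3, 2 and 2 annotated pseudogenes. ACAT2, HMGCS1, IDI1, FDPS, FDFT1, LSS, CYP51A1 and STARD4 also overlap annotated antisense or long noncoding genes on the opposite strand. Of the SREBP and LXR genes described below, SREBF1, SREBF2, MBTPS2, LPIN1, RNF145 and NR1H3 overlap a neighbour. Whether the counting used strand is not given in the sources used here.

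Across the pathway, siSCD_2 raised many members in both lines, siSCD_1 moved members in both directions, and the inhibitor did so in IGR37 while 1 member passed the test in 501mel. A change is the mean log2 level of the treated libraries minus that of their controls, and "rose" or "fell" is used for a limma adjusted p under 0.05 over all genes of the table. With siSCD_2, 12 members rose and 1 fell in 501mel, with a median change of 0.45, while 18.3% of all genes were called higher and 19.5% lower. In IGR37 the same siRNA raised 16 members and lowered 1, with a median of 0.70, against 23.2% and 22.7% of all genes. All 12 members that rose in 501mel were among the 16 that rose in IGR37 (100% of the 12 and 75% of the 16). Over the 12896 genes in both tables, the shared risen genes were 57.3% and 45.6% of the respective lists. With siSCD_1, 10 members rose and 6 fell in 501mel (median 0.12), against 20.9% and 22.0% of all genes, and 4 rose and 11 fell in IGR37 (median -0.18), against 16.7% and 19.4%. Centring each library on its median shifted the siSCD_1 changes in 501mel by -0.09 and gave 8 risen and 9 fallen members there, against 17.3% and 26.4% of all genes under that centring. With SCDi, 8 members rose and 8 fell in IGR37 (median -0.09), against 20.9% and 23.1% of all genes; each count is 30.8% of the members. In 501mel the inhibitor raised HMGCS1 and lowered none, against 0.232% and 0.0599% of all genes. Before adjustment, 10 members there had a positive and 1 a negative change with p under 0.05, against 5.25% and 4.56% of all genes. For 14 members all 3 SCDi libraries lay above all 3 DMSO libraries, against 9.61% of all genes. The median change of all genes was between -0.01 and 0.01 in these 6 comparisons.

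**Figure D1:**
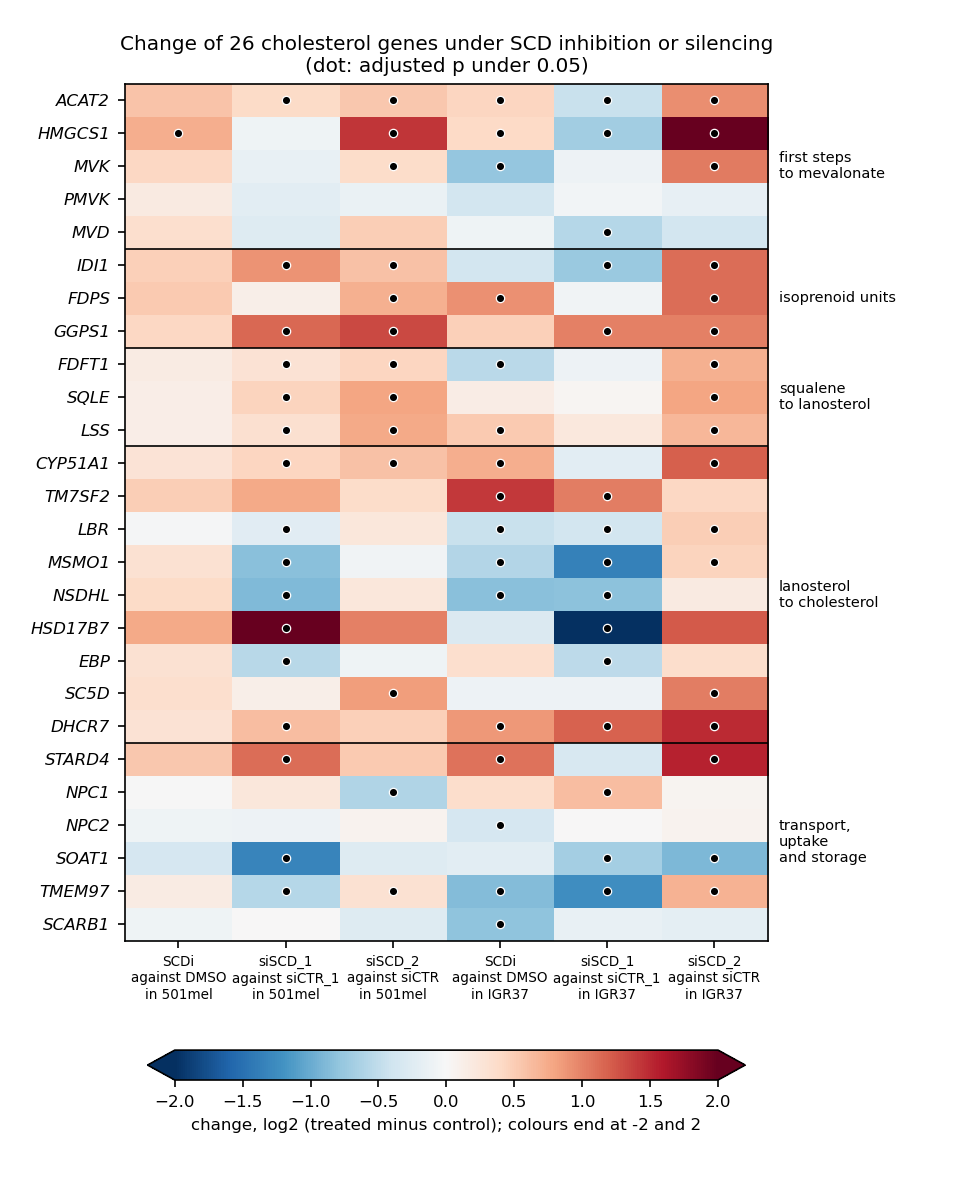
Change (log2, treated minus control) of each of the 26 members in rows, ordered by step, in the 6 treatment comparisons in columns; black dots mark an adjusted p under 0.05, and colours end at -2 and 2. The siSCD_2 columns are mostly red, with 12 and 16 risen members, while the siSCD_1 column of IGR37 has 11 fallen members.

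Of the 26 members, 11 were called in at least 4 of the 6 treatment comparisons, against 20.4% of the 12896 genes in both tables. None was called in all 6 (0.116% of those genes), and PMVK alone was called in none (16.3%). The calls went both ways for 10 members, against 19.6% of those genes. The depth of the libraries moved with siSCD_1: the 501mel siSCD_1 libraries held 2897808 to 3285909 gene reads and their controls 4146308 to 5986834. The IGR37 siSCD_1 libraries held 2402788 to 5375599 and their controls 4880488 to 7483010. Added spike-in RNA took 5.13% to 5.71% of the reads in the 501mel siSCD_1 libraries and 3.76% to 4.29% in their controls. For siSCD_1 in IGR37 the shares were 4.6% to 5.5% against 4.0% to 4.7%. For siSCD_2 they were 5.16% to 6.96% against 3.81% to 5.08% in 501mel, and 5.05% to 7.21% against 4.35% to 4.83% in IGR37. For SCDi in 501mel the order was the reverse, 2.43% to 3.61% against 3.57% to 4.37%. The part of depth and of spike-in share in the counts above was not tested.

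Promoter sequence is shown for 2 members that rose with siSCD_2 in both lines, HMGCS1 and IDI1, and for SREBF2, because these 3 genes moved together with that siRNA. Each run lies directly before the annotated gene, is written 5′ to 3′ on the gene's strand, and comes from RefSeq (GRCh38.p14). The coordinates are chr5:43313513-43313662 on the minus strand for HMGCS1, chr10:1049171-1049369 on the minus strand for IDI1, and chr22:41832855-41833078 on the plus strand for SREBF2. Capitals mark the word CCAAT, bound by NF-Y, here on the opposite strand as ATTGG, and in SREBF2 also CACCCCAC, which has the form CACNCCAC of a sterol regulatory element.
HMGCS1: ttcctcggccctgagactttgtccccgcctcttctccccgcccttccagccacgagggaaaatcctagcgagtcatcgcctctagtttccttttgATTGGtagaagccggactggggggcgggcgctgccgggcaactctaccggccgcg
IDI1: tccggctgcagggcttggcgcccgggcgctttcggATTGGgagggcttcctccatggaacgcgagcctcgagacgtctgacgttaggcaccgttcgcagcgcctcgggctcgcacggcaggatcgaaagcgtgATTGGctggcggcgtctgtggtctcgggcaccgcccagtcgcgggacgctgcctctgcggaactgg
SREBF2: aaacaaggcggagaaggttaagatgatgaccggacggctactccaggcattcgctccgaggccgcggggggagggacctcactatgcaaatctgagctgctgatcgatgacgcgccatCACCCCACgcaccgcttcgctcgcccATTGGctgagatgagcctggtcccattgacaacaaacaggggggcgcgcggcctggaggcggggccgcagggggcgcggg
In the 250 bases before an annotated start, on both strands, CCAAT was found for 18 of the 22 members with a RefSeq promoter (81.8%) and in 32% of 35116 promoters. Counted by gene, 37.0% of 27305 genes held it. The form CACNCCAC was found for IDI1 and SC5D in 1 of their windows each, and in 4.87% of all promoters. Its longer form TCACNCCAC, which contains it, was found for 0 of 22 members and in 0.883% of promoters. SREBF2, which is not a member, holds the longer form, because the base before its marked CACCCCAC is T. The word CACGTG was found for SC5D and in 6.34% of promoters. ACAT2, FDFT1, SQLE and SCARB1 had no matched promoter. A match is a word in the sequence and not a measured site.

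Among the first steps to mevalonate, HMGCS1, the cytosolic enzyme that makes HMG-CoA, had the largest rise of the 26 members with siSCD_2 in each line. Of the 5 genes of this step, 3 rose and 0 fell with siSCD_2 in each line, ACAT2, HMGCS1 and MVK. These 3 are 60% of the step, against 18.3% of all genes called higher in 501mel and 23.2% in IGR37. With siSCD_1 in IGR37, 0 rose and 3 fell, ACAT2, HMGCS1 and MVD (60%, against 19.4% of all genes called lower). With siSCD_2, HMGCS1 was at 9.76, 9.64 and 9.63 in 501mel against 7.94, 8.38 and 8.41 with siCTR, a rise of 1.43 ± 0.13 or 2.70-fold (limma adjusted p = 4e-09). In IGR37 it was at 10.50, 9.78 and 10.40 against 7.95, 8.03 and 7.93, a rise of 2.25 ± 0.13 or 4.77-fold (limma adjusted p = 8.46e-13). Every siSCD_2 library lay above every control library, the second IGR37 library being the lowest of its group. With SCDi, HMGCS1 was at 9.34, 9.41 and 9.49 against 8.66, 8.61 and 8.82 with DMSO in 501mel, a rise of 0.72 ± 0.13 (limma adjusted p = 0.00886), and at 8.41, 8.38 and 8.13 against 7.88, 7.89 and 7.96 in IGR37, a rise of 0.40 ± 0.13 (limma adjusted p = 0.0158). The groups did not overlap in either line. With siSCD_1, HMGCS1 was at 8.23, 8.37 and 8.34 against 8.40, 8.35 and 8.47 in 501mel, where the groups overlapped and the change of -0.09 ± 0.10 did not pass (limma adjusted p = 0.509). In IGR37 the siSCD_1 libraries, at 7.66, 7.27 and 7.74, all lay below their controls at 8.39, 8.09 and 8.25, and HMGCS1 fell by 0.69 ± 0.10 (limma adjusted p = 9.11e-05). The call with SCDi in 501mel was lost when only the groups compared were fitted (adjusted p = 0.0742), without a variance trend (0.0711), or without the second DMSO library (0.0636), the second SCDi library (0.0529) or the third SCDi library (0.0583). The call with SCDi in IGR37 was lost without the first or the second SCDi library (adjusted p = 0.0675 and 0.0593).

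ACAT2, the cytosolic thiolase that joins 2 acetyl-CoA, was at 8.25, 8.10 and 8.15 with siSCD_2 against 7.41, 7.75 and 7.74 in 501mel and at 9.13, 8.29 and 9.25 against 7.98, 7.95 and 7.95 in IGR37, rising by 0.53 ± 0.15 and 0.94 ± 0.15 (limma adjusted p = 0.00512 and 1.01e-05). With siSCD_1 the direction differed between the lines: it was at 8.11, 8.24 and 8.30 against 7.78, 7.89 and 7.82 in 501mel, a rise of 0.39 ± 0.08 (limma adjusted p = 0.000609), and at 8.05, 7.88 and 7.97 against 8.32, 8.40 and 8.51 in IGR37, a fall of -0.44 ± 0.08 (limma adjusted p = 0.000257). Within each of these comparisons the groups did not overlap. In IGR37 with SCDi it was at 8.10, 8.08 and 7.99 against 7.64, 7.51 and 7.72 and rose by 0.43 ± 0.15 (limma adjusted p = 0.0183), a call lost without the second DMSO library (adjusted p = 0.0747) or the first SCDi library (0.0548). MVK, mevalonate kinase, fell by 0.77 ± 0.14 with SCDi and rose by 1.04 ± 0.14 with siSCD_2 in IGR37 (limma adjusted p = 5.94e-05 and 1.2e-06). In 501mel it rose by 0.37 ± 0.14 with siSCD_2 (limma adjusted p = 0.0362), where the groups overlapped. That call was lost with only the groups compared (adjusted p = 0.0931), without a variance trend (0.0598), and without the first or the third siCTR library or the first or the third siSCD_2 library (0.112, 0.104, 0.211 and 0.0688); without the first siSCD_2 library the change was 0.25. MVD, which makes isopentenyl diphosphate, fell with siSCD_1 in IGR37 by 0.57 ± 0.12 (limma adjusted p = 0.00112). PMVK, the kinase before it, had changes between -0.36 and 0.18, none past the threshold.

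All 3 genes of the isoprenoid step rose with siSCD_2 in both lines, against 18.3% of all genes in 501mel and 23.2% in IGR37. IDI1, which interconverts the isopentenyl diphosphates, was at 5.68, 5.92 and 6.0 with siSCD_2 against 5.46, 5.13 and 5.27 in 501mel and at 6.66, 6.32 and 7.19 against 5.61, 5.59 and 5.62 in IGR37. These were rises of 0.58 ± 0.16 and 1.12 ± 0.16 (limma adjusted p = 0.00557 and 3e-06). Its siSCD_1 libraries were at 6.10, 5.88 and 6.13 against 4.76, 5.34 and 5.32 in 501mel, a rise of 0.90 ± 0.16 (limma adjusted p = 0.000264). In IGR37 they were at 5.21, 4.86 and 5.43 against 6.01, 5.85 and 5.84, a fall of -0.73 ± 0.16 (limma adjusted p = 0.00183). So the same siRNA left all 501mel libraries above and all IGR37 libraries below their controls. FDPS, farnesyl diphosphate synthase, rose with siSCD_2 from 6.6, 6.89 and 7.10 to 7.73, 7.42 and 7.57 in 501mel (0.71 ± 0.16, limma adjusted p = 0.00118) and from 7.10, 7.16 and 7.08 to 8.49, 7.61 and 8.58 in IGR37 (1.11 ± 0.16, limma adjusted p = 4.3e-06). With SCDi in IGR37 it rose from 6.72, 6.58 and 6.96 to 7.80, 7.59 and 7.63 (0.92 ± 0.16, limma adjusted p = 5.29e-05). The FDPS groups did not overlap in any of these 3 comparisons.

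GGPS1, which makes geranylgeranyl diphosphate for protein prenylation, rose with both siRNAs in both lines. With siSCD_1 it was at 3.95, 3.72 and 4.06 against 2.29, 2.80 and 3.20 in 501mel and at 4.67, 4.45 and 4.62 against 3.36, 3.57 and 3.79 in IGR37. With siSCD_2 it was at 3.67, 3.84 and 4.02 against 3.22, 2.47 and 1.87 in 501mel and at 4.94, 4.64 and 5.02 against 3.96, 3.73 and 3.88 in IGR37. The 4 rises were between 1.00 ± 0.22 and 1.32 ± 0.25, with limma adjusted p from 0.000135 to 0.00178 and no overlap of groups. The gene was thinly covered, with 19 to 198 reads per library. With SCDi its changes of 0.41 ± 0.25 and 0.48 ± 0.25 did not pass (limma adjusted p = 0.624 and 0.12).

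The 3 genes from farnesyl diphosphate to lanosterol also rose with siSCD_2 in both lines, and all 3 rose with siSCD_1 in 501mel while 0 were called with siSCD_1 in IGR37. Over all genes, 18.3% and 23.2% were called higher with siSCD_2 in 501mel and IGR37. With siSCD_1, 20.9% were called higher in 501mel, and 16.7% higher and 19.4% lower in IGR37. FDFT1, squalene synthase, was at 8.41, 8.29 and 8.26 with siSCD_2 against 7.83, 7.90 and 7.96 in 501mel and at 9.21, 9.21 and 9.08 against 8.43, 8.50 and 8.46 in IGR37, rises of 0.42 ± 0.07 and 0.70 ± 0.07 (limma adjusted p = 1.2e-05 and 3.19e-09). With siSCD_1 in 501mel it was at 8.46, 8.39 and 8.39 against 8.18, 8.10 and 8.11, a rise of 0.29 ± 0.07 (limma adjusted p = 0.00215). In IGR37 with SCDi the order was the opposite: it was at 7.93, 7.98 and 7.86 against 8.49, 8.42 and 8.46 with DMSO, a fall of -0.53 ± 0.07 (limma adjusted p = 2.78e-07). The libraries of each group lay close together, and no FDFT1 groups overlapped in these 4 comparisons. SQLE, squalene epoxidase, rose by 0.78 ± 0.13 and 0.80 ± 0.13 with siSCD_2 in 501mel and IGR37 (limma adjusted p = 2.12e-05 and 1.21e-05) and by 0.44 ± 0.09 with siSCD_1 in 501mel (limma adjusted p = 0.00135). LSS, lanosterol synthase, was at 4.74, 4.90 and 4.85 with siSCD_2 against 4.37, 3.51 and 4.36 in 501mel and at 6.13, 6.0 and 6.06 against 5.45, 5.20 and 5.54 in IGR37 (0.75 ± 0.15 and 0.66 ± 0.15, limma adjusted p = 0.000361 and 0.000953). With siSCD_1 in 501mel it was at 5.61, 5.68 and 5.69 against 5.43, 5.28 and 5.32 (0.32 ± 0.09, limma adjusted p = 0.0094), and with SCDi in IGR37 at 5.42, 5.49 and 5.51 against 4.92, 4.89 and 5.03 (0.53 ± 0.15, limma adjusted p = 0.00673). Treated LSS libraries lay above their controls in all 4 comparisons. Its rise with siSCD_2 in 501mel was 0.47 without the second siCTR library (limma adjusted p = 0.00311). That call was lost with only the groups compared (adjusted p = 0.0672) and that with siSCD_1 under median centring (0.0561).

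**Figure D2:**
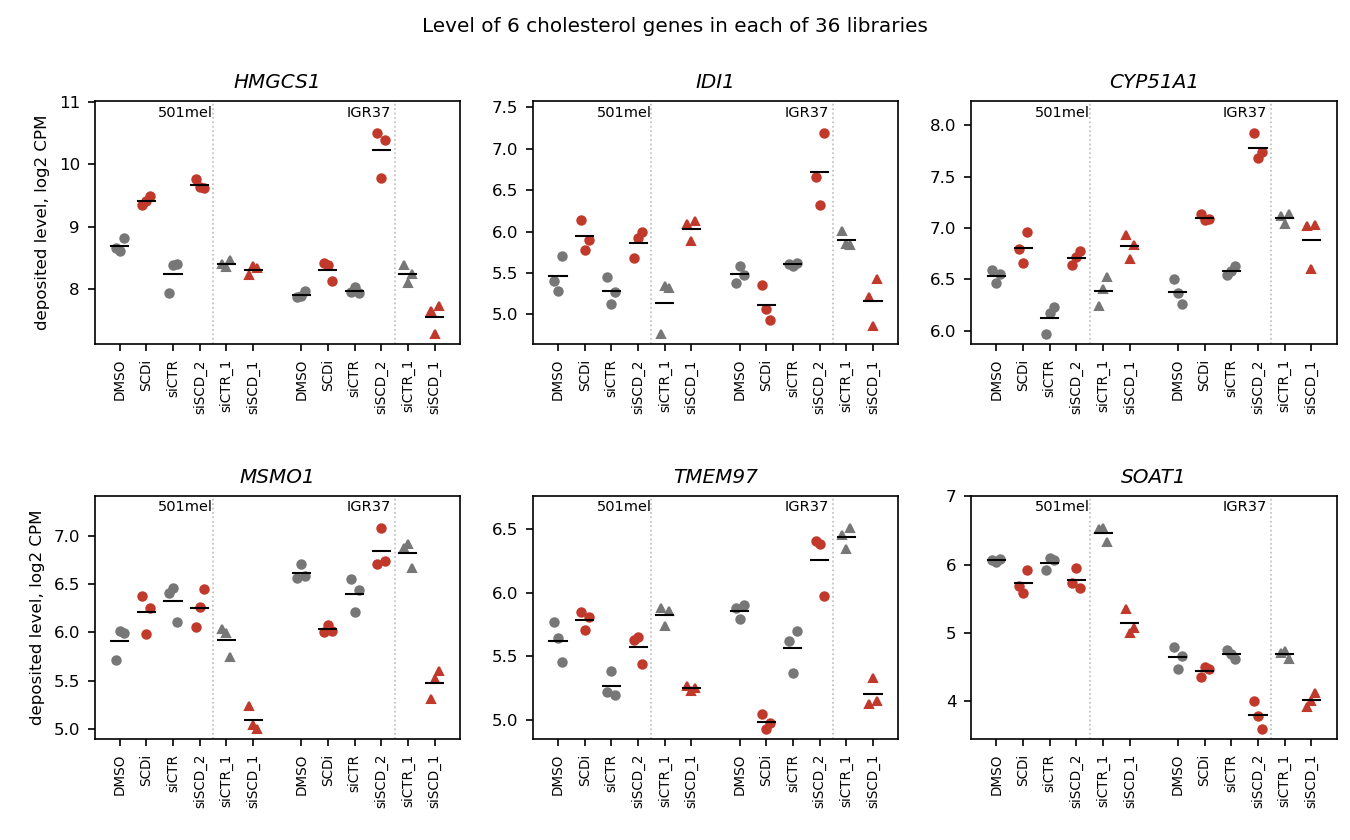
Deposited log2 level (vertical axis) of 6 members in each of the 36 libraries, by line and group (horizontal axis); grey points are controls, red points treated libraries, black bars group means, and triangles right of the dotted line belong to the second table, which was scaled separately. HMGCS1 is highest in the siSCD_2 libraries of both lines, while MSMO1 and TMEM97 are low in the siSCD_1 libraries.

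The 9 genes that turn lanosterol into cholesterol had calls in both directions. With siSCD_2, 2 rose and 0 fell in 501mel (22.2% and 0%, against 18.3% and 19.5% of all genes). In IGR37 5 rose and 0 fell (55.6% and 0%, against 23.2% and 22.7%). With siSCD_1, 3 rose and 4 fell in 501mel (33.3% and 44.4%, against 20.9% and 22.0%). In IGR37 2 rose and 5 fell with it (22.2% and 55.6%, against 16.7% and 19.4%). With SCDi in IGR37 3 rose and 3 fell (33.3% each, against 20.9% and 23.1%). CYP51A1, the lanosterol demethylase, was at 6.64, 6.72 and 6.78 with siSCD_2 against 5.96, 6.17 and 6.23 in 501mel and at 7.93, 7.68 and 7.74 against 6.54, 6.58 and 6.63 in IGR37, rises of 0.59 ± 0.09 and 1.20 ± 0.09 (limma adjusted p = 1.33e-05 and 9.38e-11). With SCDi in IGR37 it was at 7.14, 7.08 and 7.09 against 6.51, 6.37 and 6.26 and rose by 0.72 ± 0.09 (limma adjusted p = 4.41e-07). With siSCD_1 in 501mel it was at 6.93, 6.70 and 6.84 against 6.24, 6.41 and 6.52 and rose by 0.43 ± 0.11 (limma adjusted p = 0.00492). In none of these 4 did the CYP51A1 groups overlap.

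MSMO1 and NSDHL, which remove the methyl groups at carbon 4 of the sterol ring, fell with siSCD_1 in both lines and with SCDi in IGR37. CYP51A1 rose in 2 of these 3 comparisons and was not called in the third, siSCD_1 in IGR37. MSMO1 was at 5.24, 5.04 and 5.0 with siSCD_1 against 6.03, 6.0 and 5.75 in 501mel and at 5.31, 5.52 and 5.6 against 6.88, 6.91 and 6.67 in IGR37, falls of -0.84 ± 0.11 and -1.35 ± 0.11 (limma adjusted p = 2.12e-05 and 2.04e-07). In IGR37 with SCDi it was at 6.01, 6.08 and 6.01 against 6.57, 6.71 and 6.59, a fall of -0.59 ± 0.13 (limma adjusted p = 0.000471). With siSCD_2 in IGR37 it was at 6.71, 7.08 and 6.74 against 6.55, 6.22 and 6.44, a rise of 0.44 ± 0.13 (limma adjusted p = 0.00549). The treated MSMO1 libraries were thus all below their controls in 3 comparisons and all above them in 1. NSDHL fell by 0.88 ± 0.13 and 0.83 ± 0.13 with siSCD_1 in 501mel and IGR37 and by 0.84 ± 0.13 with SCDi in IGR37 (limma adjusted p = 4.69e-05, 0.000123 and 7.73e-06). With siSCD_2 its changes were 0.22 ± 0.13 and 0.18 ± 0.13, neither past the threshold. EBP, the sterol isomerase, fell with siSCD_1 by 0.56 ± 0.11 and 0.52 ± 0.11 in 501mel and IGR37 (limma adjusted p = 0.00048 and 0.0011).

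LBR, a nuclear membrane protein that is also a sterol C14 reductase, fell with siSCD_1 from 6.99, 7.09 and 7.17 to 6.95, 6.78 and 6.82 in 501mel and from 7.05, 7.04 and 6.99 to 6.63, 6.62 and 6.71 in IGR37 (-0.23 ± 0.08 and -0.37 ± 0.08, limma adjusted p = 0.0207 and 0.00112). With SCDi in IGR37 it fell from 7.01, 6.98 and 6.86 to 6.61, 6.57 and 6.33 (-0.45 ± 0.09, limma adjusted p = 0.000287), and with siSCD_2 in IGR37 it rose from 7.01, 7.09 and 6.98 to 7.66, 7.33 and 7.56 (0.49 ± 0.09, limma adjusted p = 0.000102). LBR followed the directions of MSMO1 in these 4 comparisons, and its groups did not overlap. Its call with siSCD_1 in 501mel was lost without the second or the third siCTR_1 library (adjusted p = 0.0517 and 0.0954) or the second or the third siSCD_1 library (0.0835 and 0.0554). TM7SF2, the other C14 reductase, rose with SCDi and with siSCD_1 in IGR37 by 1.41 ± 0.46 and 1.02 ± 0.31 (limma adjusted p = 0.0149 and 0.0177), from 4 to 22 reads per library in the DMSO and SCDi groups, which overlapped. With a pseudocount of 1 CPM the rise with SCDi was 0.93. The first of these calls was lost with only the groups compared (adjusted p = 0.0753) and without the second DMSO, the second SCDi or the third SCDi library (0.0747, 0.0717 and 0.102), the second with only the groups compared (0.057) and without the second siSCD_1 library (0.0835).

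DHCR7, which reduces 7-dehydrocholesterol in the last step of one branch, rose in IGR37 under all 3 treatments from a very low level. There it was at 3.5, 2.95 and 2.41 with siSCD_2 against 1.7, 1.48 and 1.18, at 2.41, 3.26 and 2.61 with siSCD_1 against 1.92, 1.21 and 1.60, and at 0.77, 1.96 and 1.87 with SCDi against 0.74, 0.74 and 0.54. The rises were 1.5 ± 0.25, 1.18 ± 0.22 and 0.86 ± 0.25 (limma adjusted p = 2.46e-05, 0.000485 and 0.00677), on 7 to 60 reads per library. In 501mel it was at 7.06, 6.87 and 6.59 with siSCD_1 against 6.12, 6.26 and 6.28, a rise of 0.62 ± 0.22 (limma adjusted p = 0.0295) on 313 to 487 reads. The groups did not overlap in these 4 comparisons, though the first SCDi library, with 8 reads, lay just above DMSO libraries with 9. The call with SCDi was lost with only the groups compared (adjusted p = 0.11) or without the second SCDi library (0.0585). The call in 501mel was lost without a variance trend (0.0647), under median centring (0.0627), and without any 1 of the 3 siCTR_1 libraries (0.0919, 0.0605 and 0.0604) or the first or second siSCD_1 library (0.12 and 0.0764). SC5D, the lathosterol oxidase, rose with siSCD_2 by 0.84 ± 0.16 in 501mel and 1.03 ± 0.16 in IGR37 (limma adjusted p = 0.000131 and 7.07e-06) and was called in no other treatment comparison. HSD17B7, a sterol ketone reductase, had 1 to 81 reads per library except in the IGR37 siSCD_2 library without a matching number, which had 269 against 59 and 26 in the other 2 of its group. With siSCD_1 it rose by 2.98 ± 0.59 in 501mel, from 2, 8 and 3 reads to 18, 29 and 18, and fell by 2.72 ± 0.59 in IGR37, from 39, 57 and 81 reads to 10, 1 and 11 (limma adjusted p = 0.000748 and 0.00192). The rise was 1.96 with a pseudocount of 1 CPM. With siSCD_2 in IGR37 its change of 1.22 ± 0.61 did not pass (limma adjusted p = 0.106), and without the second siSCD_2 library it was 1.83 (limma adjusted p = 0.0174).

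Of the 6 genes of transport, uptake and storage, 1 rose and 1 fell with siSCD_2 in 501mel (16.7% each, against 18.3% and 19.5% of all genes), and 2 rose and 1 fell in IGR37 (33.3% and 16.7%, against 23.2% and 22.7%). These siSCD_2 counts are near the shares of all genes. With SCDi in IGR37, 1 rose and 3 fell (16.7% and 50%, against 20.9% and 23.1%). In each line, 1 rose and 2 fell with siSCD_1 (16.7% and 33.3%). The shares of all genes with siSCD_1 were 20.9% and 22.0% in 501mel and 16.7% and 19.4% in IGR37. TMEM97, an endoplasmic reticulum protein that binds NPC1, was at 5.63, 5.65 and 5.44 with siSCD_2 against 5.22, 5.38 and 5.19 in 501mel and at 6.41, 6.38 and 5.97 against 5.62, 5.37 and 5.70 in IGR37, rises of 0.31 ± 0.12 and 0.69 ± 0.12 (limma adjusted p = 0.0388 and 2.51e-05). With siSCD_1 it was at 5.27, 5.23 and 5.25 against 5.88, 5.74 and 5.86 in 501mel and at 5.12, 5.33 and 5.15 against 6.45, 6.35 and 6.51 in IGR37, falls of -0.58 ± 0.09 and -1.24 ± 0.09 (limma adjusted p = 0.000111 and 6.13e-08). In IGR37 with SCDi it was at 5.05, 4.93 and 4.98 against 5.88, 5.79 and 5.90, a fall of -0.87 ± 0.12 (limma adjusted p = 8.6e-07). No TMEM97 groups overlapped in these 5 comparisons. The rise in 501mel was lost without the first or the third siCTR library (adjusted p = 0.1 and 0.118) or the first or second siSCD_2 library (0.105 and 0.124).

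SOAT1, which esterifies cholesterol for storage in lipid droplets, fell in 3 of the 6 treatment comparisons and rose in 0. With siSCD_1 it was at 5.35, 5.0 and 5.07 against 6.53, 6.54 and 6.33 in 501mel and at 3.92, 4.0 and 4.12 against 4.70, 4.74 and 4.61 in IGR37, falls of -1.33 ± 0.12 and -0.68 ± 0.12 (limma adjusted p = 3.11e-07 and 0.000332). With siSCD_2 in IGR37 it was at 4.0, 3.78 and 3.59 against 4.75, 4.69 and 4.62, a fall of -0.90 ± 0.12 (limma adjusted p = 1.01e-06). Its changes in the other 3 comparisons were -0.33, -0.21 and -0.25, none past the threshold. NPC1, which exports cholesterol from lysosomes, was at 4.02, 4.36 and 4.23 with siSCD_2 against 5.0, 4.45 and 4.97 in 501mel, a fall of -0.60 ± 0.16 (limma adjusted p = 0.00355), and at 5.08, 5.08 and 5.20 with siSCD_1 against 4.81, 4.41 and 4.28 in IGR37, a rise of 0.62 ± 0.14 (limma adjusted p = 0.00318). Neither pair of NPC1 groups overlapped, and the first call was lost with only the groups compared (adjusted p = 0.0541). NPC2, its soluble partner, fell with SCDi in IGR37 by 0.34 ± 0.08 (limma adjusted p = 0.00193). SCARB1, the receptor that takes up cholesterol from high-density lipoprotein, fell with SCDi in IGR37 by 0.80 ± 0.11 (limma adjusted p = 2.11e-06) and was not called elsewhere. STARD4, a cytosolic sterol carrier, rose in IGR37 with SCDi by 1.09 ± 0.28 and with siSCD_2 by 1.54 ± 0.28 (limma adjusted p = 0.00245 and 6.84e-05), and in 501mel with siSCD_1 by 1.11 ± 0.37 (limma adjusted p = 0.0218). Without the third DMSO library the rise with SCDi was 0.71 (limma adjusted p = 0.0347). The call in 501mel was lost without the second siCTR_1 library (adjusted p = 0.103) or the first or second siSCD_1 library (0.0669 and 0.07).

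Without the second IGR37 siSCD_2 library, 20 members were called in that comparison in place of 17. This was the highest count with a library left out, the lowest being 17. The share of all genes called in that fit is not given here. EBP then rose by 0.67 (limma adjusted p = 0.000125) and MVD fell by 0.65 (limma adjusted p = 0.00379), beside HSD17B7 above. EBP was at 7.32 and 7.44 in the other libraries of that group and at 6.42 in the second. MVD was at 6.05 in the first library, at 6.49 in the second and at 5.22 in the one without a matching number. Its controls were at 6.06, 6.39 and 6.41, so the MVD fall rests mostly on the library without a matching number. When that library was left out instead, NSDHL rose by 0.36 (limma adjusted p = 0.0174).

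Genes that control the pathway were taken as 2 lists, 9 of SREBP control and 5 of the LXR branch. With siSCD_2, 5 of the 9 rose and 3 fell in 501mel (18.3% and 19.5% of all genes), and 5 rose and 0 fell in IGR37 (23.2% and 22.7%). With siSCD_1, 6 rose and 3 fell in 501mel (20.9% and 22.0%), and 4 rose and 1 fell in IGR37 (16.7% and 19.4%). With SCDi, 2 rose and 1 fell in 501mel (0.232% and 0.0599%), and 3 rose and 1 fell in IGR37 (20.9% and 23.1%). Among the 5 LXR genes, set against the same shares, 0 rose in any of the 6 comparisons and 0 or 1 fell.

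SREBF2 moved in opposite directions with the 2 siRNAs. It was at 8.33, 8.39 and 8.24 with siSCD_2 against 7.57, 7.54 and 7.54 in 501mel and at 8.44, 8.40 and 8.17 against 7.58, 7.66 and 7.68 in IGR37, rises of 0.77 ± 0.07 and 0.70 ± 0.07 (limma adjusted p = 9.91e-09 and 3.82e-08). With siSCD_1 it was at 7.01, 7.24 and 7.05 against 7.69, 7.55 and 7.59 in 501mel and at 7.11, 6.92 and 6.87 against 7.68, 7.63 and 7.72 in IGR37, falls of -0.51 ± 0.08 and -0.71 ± 0.08 (limma adjusted p = 0.000119 and 6.42e-06). Neither siRNA left any SREBF2 library within the range of its controls. With SCDi it changed by 0.07 ± 0.07 in 501mel and rose by 0.19 ± 0.07 in IGR37 (limma adjusted p = 0.851 and 0.045). SREBF1, its paralogue for fatty acid synthesis, rose in 5 of the 6 comparisons, by 0.37 to 0.74, the exception being SCDi in 501mel (0.15 ± 0.12, limma adjusted p = 0.757).

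INSIG1, a target of SREBP that holds SCAP back, rose with SCDi in 501mel from 5.62, 5.61 and 5.67 to 6.30, 6.33 and 6.31 (0.68 ± 0.10, limma adjusted p = 0.00114). It rose with siSCD_2 by 1.03 ± 0.10 in 501mel and by 1.39 ± 0.10 in IGR37 (limma adjusted p = 7.35e-09 and 2.62e-11), and with siSCD_1 by 0.77 ± 0.08 in 501mel (limma adjusted p = 1.12e-06). In IGR37 with siSCD_1 it changed by 0.01 ± 0.08 (limma adjusted p = 0.929). RNF145, a sterol-responsive ubiquitin ligase of SCAP, fell with SCDi by 0.42 ± 0.07 in 501mel and by 0.74 ± 0.07 in IGR37, and with siSCD_1 by 1.14 ± 0.07 in 501mel (limma adjusted p = 0.00266, 2.51e-09 and 2.26e-09). With siSCD_2 it fell by 0.51 ± 0.07 in 501mel and rose by 0.61 ± 0.07 in IGR37 (limma adjusted p = 1.73e-06 and 7.44e-08). SCAP fell in 501mel with both siRNAs, by 0.66 ± 0.10 and 0.59 ± 0.12 (limma adjusted p = 4.31e-05 and 0.000396). In IGR37 its siSCD_1 libraries, at 7.82, 8.16 and 7.72, instead lay above their controls at 7.66, 7.59 and 7.64. Its siSCD_2 libraries there, at 7.37, 7.45 and 7.08, overlapped their controls at 7.26, 7.44 and 7.57. Among the LXR genes, MYLIP, an LXR target that degrades lipoprotein receptors, fell in IGR37 with SCDi by 1.23 ± 0.18 and with siSCD_1 by 0.61 ± 0.14 (limma adjusted p = 2.69e-06 and 0.00305). NR1H2, which encodes LXR beta, fell with siSCD_2 by 1.04 ± 0.28 in 501mel and 0.97 ± 0.28 in IGR37 (limma adjusted p = 0.00455 and 0.00631), with overlapping groups in IGR37. The exporters ABCA1 and ABCG1 had 0 to 19 and 0 to 31 reads per library, and no treatment change of theirs passed.

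**Figure D3:**
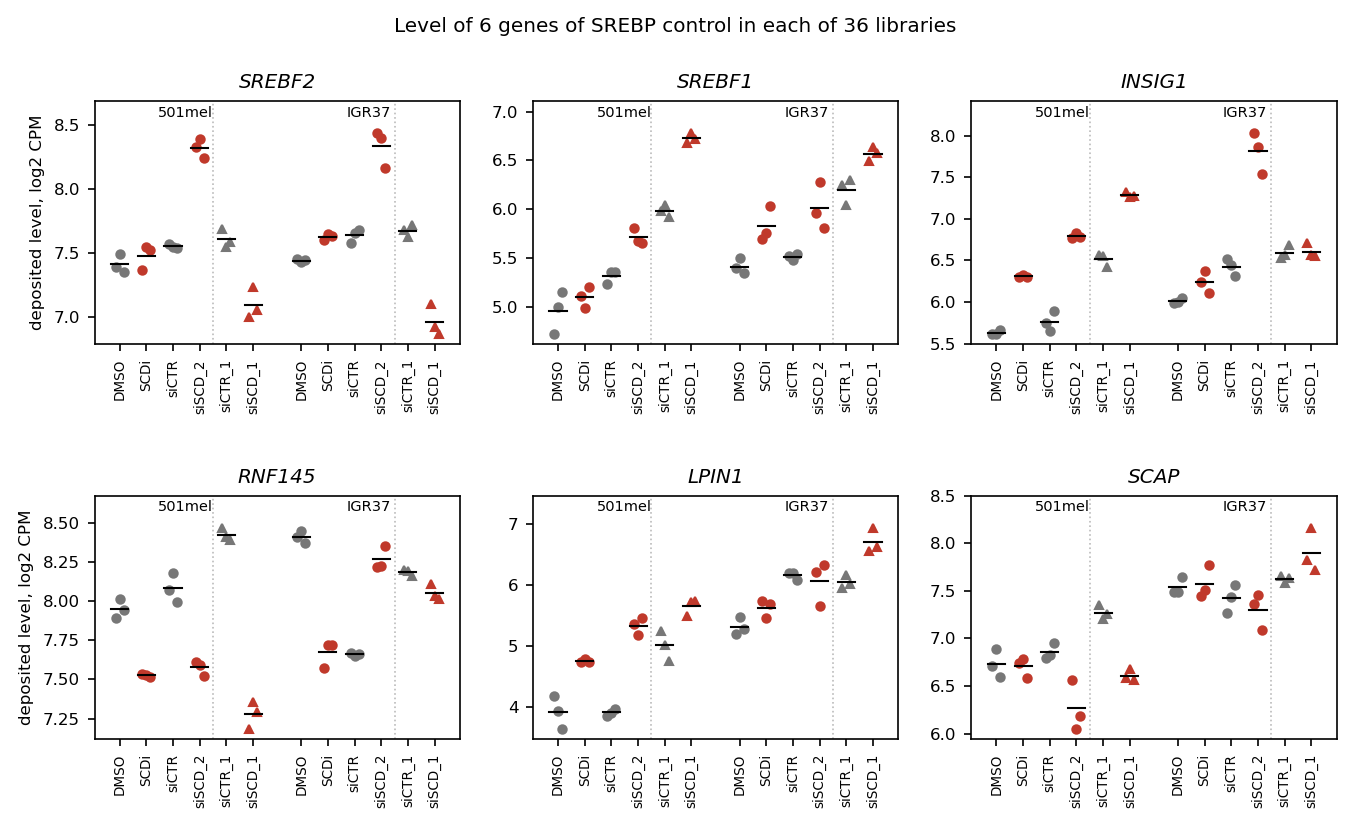
Deposited log2 level (vertical axis) of 6 genes of SREBP control in each of the 36 libraries, by line and group (horizontal axis); colours, bars and triangles stand for treated and control libraries, group means and the second table. The siSCD_2 libraries lie above and the siSCD_1 libraries below all other libraries of their own table for SREBF2 in both lines.

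The labels do not give the siRNA sequences. The word GCTTCCT, taken from earlier results of these data, stands once or more in the longest annotated 3' UTR of 19.44% of 11664 genes, and the genes that hold it had a lower median change with siSCD_1 than the others. The word was chosen on these same changes, so this difference restates that choice and is no independent evidence. The medians were -0.11 against 0.04 in 501mel and -0.08 against 0.00 in IGR37. With siSCD_2 and SCDi both medians were between -0.01 and 0.01. Of the members, CYP51A1 holds 2 copies, and HMGCS1, MVK, SOAT1 and SCARB1 hold 1 each, so 5 of the 26 carry it. Outside the members, SREBF2 holds 3, and LPIN1, ABCG1 and SCD hold 1 each. SREBF2 fell with siSCD_1 in both lines, while every LPIN1 library with siSCD_1 lay above its controls. Of the 6 members that fell with siSCD_1 in both lines, SOAT1 holds 1 copy, and LBR, MSMO1, NSDHL, EBP and TMEM97 hold 0. Whether the word has a part in these changes was not tested.

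The lines differed in some of these genes, as in many others, before SCD was perturbed. IGR37 was compared with 501mel under each control. Under DMSO 8 members were higher and 6 lower in IGR37 (30.8% and 23.1% of the members), near or below the 31.1% and 29.7% of all genes. Under siCTR 11 were higher and 6 lower, against 32.1% and 30.4%, and under siCTR_1 12 were higher and 4 lower, against 31.1% and 29.2%. GGPS1, FDFT1, LSS, NSDHL and NPC2 were higher in IGR37 under all 3 controls, and TM7SF2, DHCR7 and SOAT1 were lower under all 3. The share of all genes called in the same direction under all 3 controls was not counted, so these members are only named. The NSDHL call under siCTR_1 was lost without the third IGR37 library (adjusted p = 0.0503). MVK was higher in IGR37 under DMSO and lower under the control siRNAs, and those calls were lost without the third IGR37 DMSO library (adjusted p = 0.0912) and, under siCTR_1, without the first or the third 501mel or the second IGR37 library (0.11, 0.0641 and 0.144).

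DHCR7 showed the largest difference of the 26 between the lines under each control. It was at 0.74, 0.74 and 0.54 in IGR37 and at 5.74, 5.81 and 5.63 in 501mel under DMSO, which is 9, 9 and 7 reads against 258, 322 and 276. The difference was -5.05 ± 0.25 under DMSO, -4.33 ± 0.25 under siCTR and -4.64 ± 0.22 under siCTR_1 (limma adjusted p = 8.68e-15, 1.57e-13 and 6.6e-11). The rises of DHCR7 in IGR37 given above left it below every 501mel library of the same table. STARD4 was lower in IGR37 by -2.0 ± 0.28 under DMSO and -2.76 ± 0.28 under siCTR (limma adjusted p = 1.04e-06 and 4.99e-09), and by -0.79 ± 0.37 under siCTR_1, which did not pass (limma adjusted p = 0.0732). SOAT1 was lower by -1.42 ± 0.12, -1.34 ± 0.12 and -1.78 ± 0.12 under DMSO, siCTR and siCTR_1 (limma adjusted p = 1.91e-10, 4.66e-10 and 3.68e-09). TM7SF2 was lower by -1.85 to -2.42, and by -1.23 under DMSO with a pseudocount of 1 CPM. NSDHL was higher in IGR37 by 1.26 ± 0.13 under DMSO (limma adjusted p = 6.07e-09), and LSS by 1.32 ± 0.15 under siCTR (limma adjusted p = 5.66e-08). ABCG1 had 0 or 1 read in every 501mel library and 7 to 31 in every IGR37 library.

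**Figure D4:**
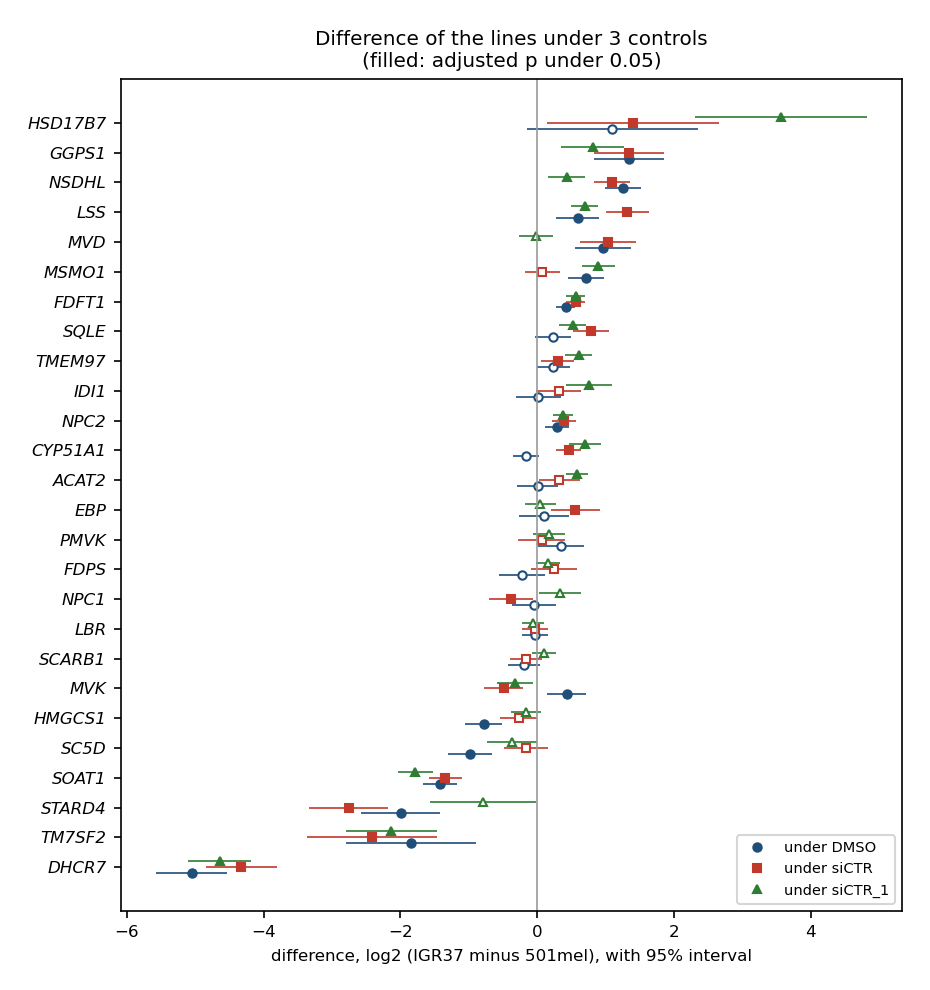
Difference in level (horizontal axis, log2, IGR37 minus 501mel, with 95% intervals) of each of the 26 members in rows, ordered by the mean of 3 differences, under DMSO, siCTR and siCTR_1; filled points have an adjusted p under 0.05. DHCR7 lies between -5.05 and -4.33 under all 3 controls, apart from the other members.

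The effect of each treatment was compared between the lines as the change in IGR37 minus the change in 501mel. For SCDi, 1 member had a higher and 8 a lower effect in IGR37, against 12.3% and 15.3% of all genes. The lower ones were MVK, IDI1, FDFT1, LBR, MSMO1, NSDHL, TMEM97 and SCARB1, and the higher one CYP51A1. For siSCD_1, 1 was higher (SOAT1) and 9 were lower, against 10.0% and 10.3%. For siSCD_2, 7 were higher and 2 lower (MVD and SOAT1), against 11.6% and 9.47%. These 9 calls became 4 with only the groups compared or without the second 501mel siCTR library, and 5 without the second or the third 501mel siSCD_2 library, the second or the third IGR37 siCTR library, or the first IGR37 siSCD_2 library. NSDHL had the largest difference with SCDi, a change of 0.38 in 501mel and -0.84 in IGR37, which differed by -1.22 ± 0.18 (limma adjusted p = 1.53e-05). IDI1 differed by -1.63 ± 0.22 with siSCD_1 (limma adjusted p = 0.000215), and HMGCS1 by 0.82 ± 0.19 with siSCD_2 (limma adjusted p = 0.00253). FDFT1, CYP51A1 and MSMO1 differed between the lines under all 3 treatments, though FDFT1 and MSMO1 with siSCD_2 (adjusted p = 0.0328 and 0.0421) lost their calls in 7 of 12 fits that left out a library each, and MSMO1 with siSCD_1 in 5.

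**Figure D5:**
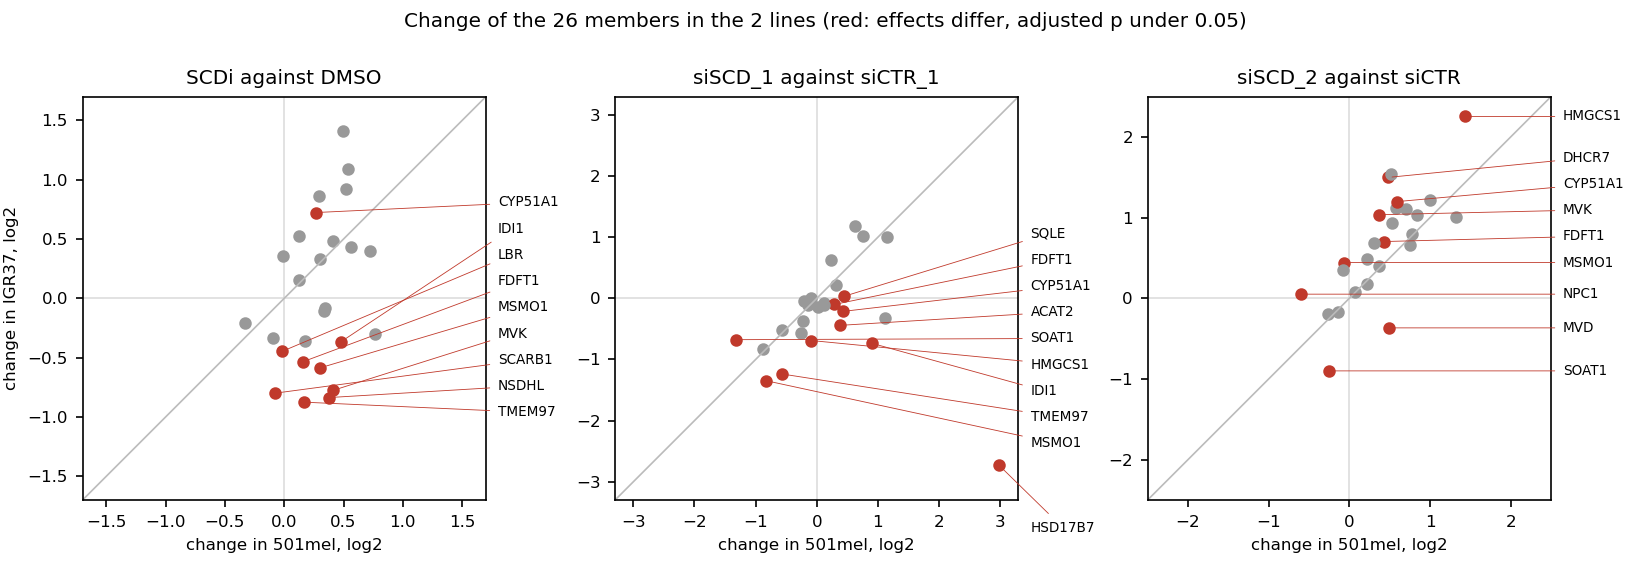
Change in 501mel (horizontal axis, log2) against change in IGR37 (vertical axis, log2) of the 26 members for SCDi, siSCD_1 and siSCD_2; red named points are members whose effects differed between the lines at an adjusted p under 0.05, and the grey diagonal marks equal changes. With SCDi, 8 of the 9 named members lie below the diagonal, and with siSCD_2, 7 of 9 lie above it.

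The inhibitor and siSCD_2 were measured in the same table with separate controls, so their effects could be compared within each line. In 501mel, 4 members had a higher effect with siSCD_2 than with SCDi and 0 a lower one, against 9.51% and 11.5% of all genes. In IGR37, 13 were higher and 1 lower, against 20.2% and 18.7%. HMGCS1 exceeded its inhibitor effect by 0.71 ± 0.19 in 501mel and by 1.85 ± 0.19 in IGR37 (limma adjusted p = 0.00758 and 2.03e-08), and SQLE by 0.65 ± 0.18 and 0.64 ± 0.18 (limma adjusted p = 0.00942 and 0.00546). FDFT1 and LSS were the other members called in 501mel, at 0.27 ± 0.09 and 0.63 ± 0.22 (limma adjusted p = 0.0419 and 0.0414), and these calls were lost in 10 and 8 of the 12 fits that left out a library (adjusted p up to 0.103 and 0.139). The LSS difference was 0.34 without the second 501mel siCTR library. The count in 501mel was 2 without the first or the third DMSO library or the first SCDi library. In IGR37 MVK, TMEM97, IDI1 and FDFT1 followed HMGCS1, with differences of 1.81, 1.57, 1.49 and 1.24. SOAT1 was the 1 member with a lower effect of siSCD_2 there (-0.69 ± 0.17, limma adjusted p = 0.0019). For FDPS the 2 effects differed by 0.19 ± 0.23 in IGR37, which did not pass (limma adjusted p = 0.541). Of the 8 members that fell with SCDi in IGR37, 5 rose there with siSCD_2 (62.5% of the 8 and 31.2% of the 16 that rose, against 21.5% and 21.7% over the genes in both tables): MVK, FDFT1, LBR, MSMO1 and TMEM97.

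The 2 siRNAs were measured in different tables with different controls, so their values stand side by side without a test between them. In IGR37, 6 of the 11 members that fell with siSCD_1 rose with siSCD_2 (54.5% of the 11, 37.5% of the 16): ACAT2, HMGCS1, IDI1, LBR, MSMO1 and TMEM97. Over all 12896 genes in both tables that overlap was 13.2% and 11% of the lists. In 501mel, 7 of the 10 that rose with siSCD_1 also rose with siSCD_2 (70% of the 10, 58.3% of the 12): ACAT2, IDI1, GGPS1, FDFT1, SQLE, LSS and CYP51A1. The shares over all genes were 34.2% and 38.1%. All 6 members that fell with siSCD_1 in 501mel also fell with it in IGR37 (100% of the 6 and 54.5% of the 11, against 50.2% and 57.1% over all genes): LBR, MSMO1, NSDHL, EBP, SOAT1 and TMEM97.

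The genes whose 6 treatment changes were most like those of the 3 members with the most calls were ranked by Pearson's r over these 6 changes among 6978 genes, as a description. For HMGCS1 they were RPS25, RPS23 and CCDC47 (r = 0.995, 0.990 and 0.988), for TMEM97 SMIM13, MAT2A and XRCC5 (0.992, 0.991 and 0.989), and for ACAT2 USP1, RDX and MRPL42 (0.998, 0.979 and 0.973). The 6 points share no library, and none of the 9 named genes is a member. With 6 points and 6978 genes, the highest r can be this high among unrelated genes, and the likeness was not tested.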

How the data were processed

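The authors deposited log2 values per gene and library in 2 tables, made with STAR, edgeR and the hg38 build, per the submitters' processing notes; versions, counting and strand are not given in the sources used here. The log2 values fit log2 CPM with a shared floor: whole reads were recovered within 0.000457 reads, which gave the depths and reads printed. Spike-in rows and a tagged construct were left out. Columns were matched to samples by title; 1 IGR37 siSCD_2 library, whose number differs between label and column, was assigned to its group only.

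Each table was fitted whole with limma 3.58.1 in R 4.3.3 (1 coefficient per group, moderated variance with a trend), giving 14 comparisons, with Benjamini-Hochberg adjustment over all its genes and a threshold of 0.05. The intervals cover 95%. The fit was tested on simulated data. No 2 libraries agreed within counting noise. Alternatives were fitting only the groups compared, adding a pseudocount of 1 CPM, no variance trend, a filter (log2 of 2 in 3 libraries), median centring, a replicate block, and leaving out each library. The replicate block was fitted without the IGR37 siSCD_2 library that has no matching number.

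Members and lists were chosen with earlier results of these data known. Library values are printed for members called in at least 4 of 6 treatment comparisons and for the 2 with the smallest adjusted p per direction and comparison; likeness was ranked among genes with a mean log2 level of at least 4 for the 3 members with the most calls. SREBF2 and INSIG1 library values were chosen after their values were seen. Positions come from GENCODE 29 and RefSeq, both on the GRCh38 assembly that hg38 names.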

Additional observations from a re-analysis of the deposited data

Results flagged for a closer look

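These are the 28 members' effects that differed between the lines, by limma's test of the difference itself (change in IGR37 minus change in 501mel, log2).

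With SCDi, the differences were -1.19 for MVK, -0.84 for IDI1, -0.69 for FDFT1, -0.43 for LBR, -0.89 for MSMO1, -1.22 for NSDHL, -1.04 for TMEM97 and -0.72 for SCARB1, each lower in IGR37, and 0.45 for CYP51A1, which was higher there. MVK, IDI1, FDFT1, MSMO1, NSDHL and TMEM97 had a positive change in 501mel and a negative change in IGR37. The LBR difference lost its call without the third IGR37 SCDi library (adjusted p = 0.057), and the other 8 kept theirs with each of the 12 libraries left out.

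With siSCD_1, the differences were -0.83 for ACAT2, -0.60 for HMGCS1, -1.63 for IDI1, -0.39 for FDFT1, -0.41 for SQLE, -0.64 for CYP51A1, -0.51 for MSMO1, -5.70 for HSD17B7, -0.66 for TMEM97 and 0.65 for SOAT1. HSD17B7 rests on 1 to 81 reads per library. SQLE lost its call in 9 and MSMO1 in 5 of the 12 fits that left out a library, with adjusted p up to 0.11 and 0.091. Among the planned settings, HMGCS1 lost its call without a variance trend (adjusted p = 0.0554), SQLE without a trend, under median centring and with the replicate block (0.0643, 0.114 and 0.0546), and MSMO1 without a trend and under median centring (0.075 and 0.0854).

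With siSCD_2, the differences were 0.82 for HMGCS1, 0.66 for MVK, -0.86 for MVD, 0.28 for FDFT1, 0.61 for CYP51A1, 0.51 for MSMO1, 1.02 for DHCR7, 0.65 for NPC1 and -0.65 for SOAT1. HMGCS1, CYP51A1 and SOAT1 kept their calls with each of the 12 libraries left out, while MVK lost it in 3, MVD, FDFT1, MSMO1 and DHCR7 in 7 each, and NPC1 in 8. Of the 6 planned settings, MVD and DHCR7 lost their calls in 3 each, FDFT1 and MSMO1 in 2 each, and NPC1 in 1. The MVD difference was -0.51 without the IGR37 siSCD_2 library that has no matching number. With the replicate block, which also leaves out that library, it was -0.49.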

How the results depend on the processing

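No called change reversed under any alternative. Of 2184 values of single members under the planned settings, 2082 kept their direction and side of the threshold, 35 lost their call, 47 gained one, and 20 changed sign with neither fit calling them. With SCDi in 501mel, the number of members called (1) was 0 with only the groups compared, 0 without a variance trend and 2 with the replicate block, and 0 to 1 with a library left out, 0 without the second DMSO, the second SCDi or the third SCDi library; at this number of libraries it decides on HMGCS1 and ACAT2 alone. Over all genes, SCDi in 501mel gave 31 higher and 8 lower in the main fit and 7 and 1 with only the groups compared. It gave 23 and 3 without a variance trend and 42 and 11 with the replicate block. The number of siSCD_2 effects that differed between the lines (9) was 4 with only the groups compared. There, all genes went from 1553 higher and 1266 lower to 1039 and 782. With a library left out it was 4 (without the second 501mel siCTR library) to 12 (without the second IGR37 siSCD_2 library). The number of members whose siSCD_2 effect differed from that of SCDi in 501mel (4) was 2 to 4 with a library left out. It was 2 without the first or the third 501mel DMSO or the first SCDi library. Counts over all genes in the fits that left out a library are not given here. Same-numbered libraries had correlations of deviations from -0.124 to 0.156, over 0.1 in 1 of 17 pairs. Of 17 treated libraries, 7 correlated best with the control of their own number. These values show no clear pairing by number, but with 3 libraries a group they cannot exclude it. The replicate block moved no other count by over 1.5 times: siSCD_2 gave 15 and 18 members in 501mel and IGR37 in place of 13 and 17. Over all genes it gave 2556 higher and 2717 lower in 501mel, in place of 2447 and 2612. In IGR37 it gave 2749 and 2633 in place of 3101 and 3035. That fit lacks the IGR37 siSCD_2 library without a matching number, so the block and the missing library cannot be told apart there. Median centring shifted the line differences of siSCD_1 effects by 0.11. The causes of these changes were not tested. Genes with few reads, HSD17B7, TM7SF2, DHCR7 and STARD4 in IGR37, are limited by depth.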
